A study of Mus musculus with 16 samples.

Results

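The immunoglobulin genes and the J chain gene were followed across livers of mice with and without hepatic Cpt1a. Members were every gene that the deposited tables class as an immunoglobulin constant, variable, diversity or joining gene, together with Jchain, which gave 172 of the 25803 genes listed. They comprised 7 heavy chain constant genes (Ighm, Ighd, Ighg1, Ighg2b, Ighg2c, Ighg3 and Igha), 72 heavy V genes, 1 heavy D and 1 heavy J gene, Igkc with 79 kappa V and 4 kappa J genes, 3 lambda constant genes with 2 lambda V and 1 lambda J gene, and Jchain. The family was chosen by the LKO against control differences measured in these libraries, Jchain having been among the largest. Values of LKO against control are therefore given as a description, and tests are given for refeeding, for the interaction and for relations between libraries of 1 genotype.

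All mice were male and had been fed a high-fat diet for 12 weeks. Fasted control livers and fasted LKO livers (liver-specific knockout of Cpt1a) were taken after a 16 h fast. Refed control and refed LKO livers were taken when a fast of 16 h had been ended by refeeding for 6 h. Each group had 4 bulk RNA libraries. The fasted livers gave S40 to S43 for controls and S44 to S47 for LKO, and the refed livers gave S48 to S51 and S52 to S55 in the same order. The design text calls the controls wild type, and neither it nor the labels give the means of knockout, the strain or the age. Nothing in the labels says that libraries of a group came from separate animals, so the p-values measure only the spread between these samples, which may be technical.

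An antibody is built of paired heavy and light chains. In a developing B cell a V segment is joined to a J segment, with a D segment between them in the heavy chain, and the product is transcribed together with a constant gene that sets the isotype (IgM, IgD, IgG or IgA) or the light chain class (kappa or lambda). Naive B cells carry IgM and IgD, switched cells have replaced these by an IgG or IgA constant gene, and plasma cells transcribe immunoglobulin genes at very high levels. J chain is a small protein of plasma cells that links IgM into pentamers and IgA into dimers. The liver clears IgA from blood and passes some of it into bile.

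Since V genes can be told apart only by their sequence, the 3′ ends of the V genes on which the results turn are shown first, as the stretch that leads into the third complementarity determining region. The sequences are the last 45 bases of the GENCODE M21 transcript of each gene, matched by gene identifier, 5′ to 3′, with the codon of the conserved cysteine near the 3′ end in capitals. The most abundant heavy V genes ended as follows.
Ighv1-4: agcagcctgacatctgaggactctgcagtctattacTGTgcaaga
Ighv1-82: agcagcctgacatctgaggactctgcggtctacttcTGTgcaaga
Ighv1-80: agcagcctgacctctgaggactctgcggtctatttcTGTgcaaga
Ighv1-59: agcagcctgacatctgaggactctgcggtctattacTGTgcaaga
Ighv8-8: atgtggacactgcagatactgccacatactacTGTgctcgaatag

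The end of Ighv1-59 was the same in 7 members, that of Ighv1-80 in 3 and that of Igkv4-59, shown further down, in 3. Sequence that lies wholly within such a stretch cannot tell those genes apart. Among the 72 heavy V genes, 63 shared at least 1 window of 50 bases with another member, and 57 of the 79 kappa V genes did. Igkv4-59 shared 68.3% of its windows and Igkv1-110 shared 50.9%, chiefly with Igkv1-117. Counts of these V genes could therefore be split between near-identical copies, and how the counting treated such reads is not given in the sources used here. Igkc, Igha, Ighm, Ighd, Iglc1 and Jchain shared no window with another member. The kappa and lambda V genes with the most counts ended as follows.
Igkv10-96: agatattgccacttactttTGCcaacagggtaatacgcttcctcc
Igkv1-135: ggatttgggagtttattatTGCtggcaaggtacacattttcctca
Igkv1-117: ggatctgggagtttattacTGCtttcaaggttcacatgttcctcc
Igkv1-110: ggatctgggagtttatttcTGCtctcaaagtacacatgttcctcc
Igkv4-59: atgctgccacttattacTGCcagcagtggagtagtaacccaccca
Iglv1: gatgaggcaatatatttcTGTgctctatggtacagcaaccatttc

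Libraries held 14721601 to 24618230 counts. Cpt1a stood at 319.1 to 619.1 CPM (counts per 1000000 of the TMM-scaled library total) in the controls and at 39.8 to 125.5 CPM in the LKO livers, without overlap. The 8 hepatocyte genes on the marker list summed to 70259 to 77148 CPM in fasted controls and 57579 to 66215 CPM in fasted LKO livers, without overlap. In the refed state they summed to 66228 to 89318 and 58485 to 71859 CPM. By edgeR (adjusted p under 0.05), 2 of the 8 were lower in fasted and 0 in refed LKO livers. Over all genes tested 6.48% and 1.35% were. The median log2 fold change of the 8 was −0.55 fasted and −0.35 refed. In bulk RNA, fewer cells of a type and less RNA per cell cannot be told apart, which holds for every level below.

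Immunoglobulin transcripts were a small part of the liver RNA in every library and a larger part in the LKO livers. Summed over all members except Jchain they stood at 37.5, 51.3, 16.4 and 20.1 CPM in the fasted controls. The sums of the fasted LKO livers were 122.0, 442, 162 and 319.6 CPM. After refeeding the sums were 34.3, 33.3, 19.6 and 36.4 CPM in the controls and 253, 536, 491 and 349.8 CPM in the LKO livers. Every LKO library lay above every control library, and the LKO libraries spread more widely among themselves in the fasted state. In counts over all 172 members, Jchain included, the controls held 4656 in all and the LKO livers 50503.

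The low counts limited what could be tested gene by gene. The filter on low counts was passed by 26 of the 172 members: the 7 heavy constant genes, Igkc, Iglc1, Iglc2, Jchain, 9 kappa V genes, 5 heavy V genes and Iglv1. A member that passed only through the LKO libraries had to differ, so the 26 do not stand for the family. Of the 146 that did not pass, 63 had under 10 counts over the 16 libraries. Over all 172 members the mean CPM was higher in LKO livers for 155 and lower for 17, 53 had no count in any control library, and 8 had none in any LKO library.

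Of the 26, 16 were called higher and 0 lower in fasted LKO against fasted control livers, where 12.2% of the 14488 genes tested were called, 5.75% higher and 6.48% lower (edgeR, Benjamini-Hochberg adjusted p under 0.05 over all genes tested). After refeeding 19 were called higher and 0 lower, where 3.63% of all genes tested were called, 2.28% higher and 1.35% lower. The LKO and control libraries did not overlap, with LKO higher, for 14 of the 26 in the fasted state and for 20 in the refed state. Over all genes tested that held for 8.27% and 6.68%. These are the contrasts in which the family was noticed, and nothing is read from the counts.

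Jchain (chromosome 5, 88667668 to 88675750, minus strand, as in the deposited tables, whose processing notes name mm39) encodes the joining chain of IgM and IgA polymers. It stood at 1.79, 3.15, 1.26 and 0.926 CPM in fasted controls and at 7.87, 27.4, 14.3 and 24.0 CPM in fasted LKO livers. In refed controls it stood at 2.17, 2.23, 0.795 and 1.49 CPM and in refed LKO livers at 12.3, 27.8, 31.6 and 23.5 CPM. The lowest LKO value, in S44, was above the highest control value, in S41. The ratio of group means was 10.3 in the fasted state (8.63 to 13.9 with each library left out in turn) and 14.2 in the refed state (12.1 to 16.5).

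The stretch before the Jchain start site is shown since the gene lies apart from the immunoglobulin loci and was high in the same libraries. It is the 250 bases upstream from RefSeq (GRCm38.p6, chr5:88527898-88528147, minus strand, 5′ to 3′), with matches to the E box letters CANNTG in capitals.
Jchain: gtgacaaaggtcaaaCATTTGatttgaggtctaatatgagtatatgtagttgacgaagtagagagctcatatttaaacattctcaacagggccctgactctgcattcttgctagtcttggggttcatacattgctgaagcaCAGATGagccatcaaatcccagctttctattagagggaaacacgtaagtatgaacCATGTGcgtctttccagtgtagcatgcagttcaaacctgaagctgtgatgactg

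On both strands the window held 3 E box matches, and at least 1 such match occurs in 66.2% of the 32851 RefSeq promoter windows of the same length. The octamer of immunoglobulin promoters, ATTTGCAT, had 0 matches there on either strand, and 1.60% of the windows hold it. The letters TATAAA had 0 matches, against 12.4% of windows with one. The promoter table held no other member.

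Igkc (chromosome 6, 70703419 to 70703950, plus strand), the constant gene of all kappa light chains, had the highest level per length of the family, a mean of 214 CPM per kilobase in LKO livers and 16.2 in controls. It stood at 10.2, 15.5, 5.18 and 4.32 CPM in fasted controls and at 38.9, 151, 57.1 and 109.5 CPM in fasted LKO livers. The refed controls held 8.49, 9.50, 5.25 and 10.6 CPM and the refed LKO livers 85.0, 183, 167 and 118 CPM. No LKO library overlapped with a control library. The ratio of means was 10.1 in the fasted state (7.78 to 13.6 with each library left out) and 16.3 in the refed state (14.5 to 18.4).

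The heavy chain constant genes on chromosome 12 fell into those of unswitched and those of switched B cells. Ighm, the constant gene of IgM, stood at 9.77, 16.7, 4.99 and 9.81 CPM in fasted controls and at 16.7, 10.2, 13.3 and 14.3 CPM in fasted LKO livers. The refed controls held 9.83, 13.4, 8.75 and 15.1 CPM and the refed LKO livers 10.7, 12.0, 19.1 and 12.9 CPM. The groups overlapped in both states, with a log2 fold change of 0.40 (SE 0.28) in the fasted and 0.22 (SE 0.28) in the refed state. Ighd, the constant gene of IgD, likewise overlapped and lay between 0.379 and 2.10 CPM in controls and between 1.18 and 2.16 CPM in LKO livers. Its log2 fold changes were 0.14 (SE 0.34) and 0.21 (SE 0.34), and the former was −0.17 without S42.

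Ighg2c, the constant gene of IgG2c, gave the highest IgG level. It stood at 1.69, 3.27, 1.64 and 0.0617 CPM in fasted controls and at 21.6, 122, 32.8 and 56.7 CPM in fasted LKO livers. After refeeding it stood at 1.21, 0.690, 0.318 and 0.475 CPM in controls and at 65.8, 125, 109.8 and 55 CPM in LKO livers. The groups were apart in both states, and S45 and S53 held the highest levels. The ratio of means was 35.1 in the fasted state, 22.3 without S45, and 132 in the refed state (112 to 180.1 with each library left out). Up to 5.49% of its 50-base windows were shared with another member, Ighg2b.

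Ighg1, the constant gene of IgG1, was low in most controls. It stood at 0.397, 1.28, 0.0631 and 0.123 CPM in fasted controls and at 1.64, 45, 7.73 and 31.4 CPM in fasted LKO livers, a ratio of means of 46 that was 110.4 without S41 and 29.1 without S45. In refed livers the controls held 0.0638, 0.0531, 0.0398 and 0.610 CPM and the LKO livers 30.1, 43.3, 51.5 and 35.3 CPM. That refed ratio was 209, resting on 12 refed control counts, of which 9 came from S51. Without S51 it was 767 on the 3 counts left (95% exact Poisson interval of those counts 262 to 3718). S44, at 1.64 CPM, lay close to the highest fasted control, S41.

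Ighg2b, the constant gene of IgG2b, was 17.5 times as high in fasted LKO as in fasted control livers (13.4 to 23.5 with each library left out). In the refed state the ratio was 23.8 (19.98 to 28.6). Its levels ran from 0.247 to 2.10 CPM over the 8 controls and from 4.29 to 42.9 CPM over the 8 LKO libraries. Ighg3, the constant gene of IgG3, was the lowest of the IgG genes, with 31 counts over the controls and 99 over the LKO livers. It overlapped between genotypes in both states, and its log2 fold changes were 2.23 (SE 0.89) fasted and 1.23 (SE 0.79) refed.

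Igha (chromosome 12, 113218450 to 113223856, minus strand), the constant gene of IgA, stood at 5.70, 1.40, 1.01 and 1.30 CPM in fasted controls and at 21.5, 14.5, 9.97 and 37.7 CPM in fasted LKO livers. The refed controls held 3.57, 2.18, 0.716 and 1.97 CPM and the refed LKO livers 15.9, 57.4, 49.5 and 50.2 CPM. The groups did not overlap, and the lone high fasted control was S40. The ratio of means was 8.90 in the fasted state, 16.9 without S40, and 20.5 in the refed state (16.8 to 26.7 with each library left out).

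**Figure D1:**
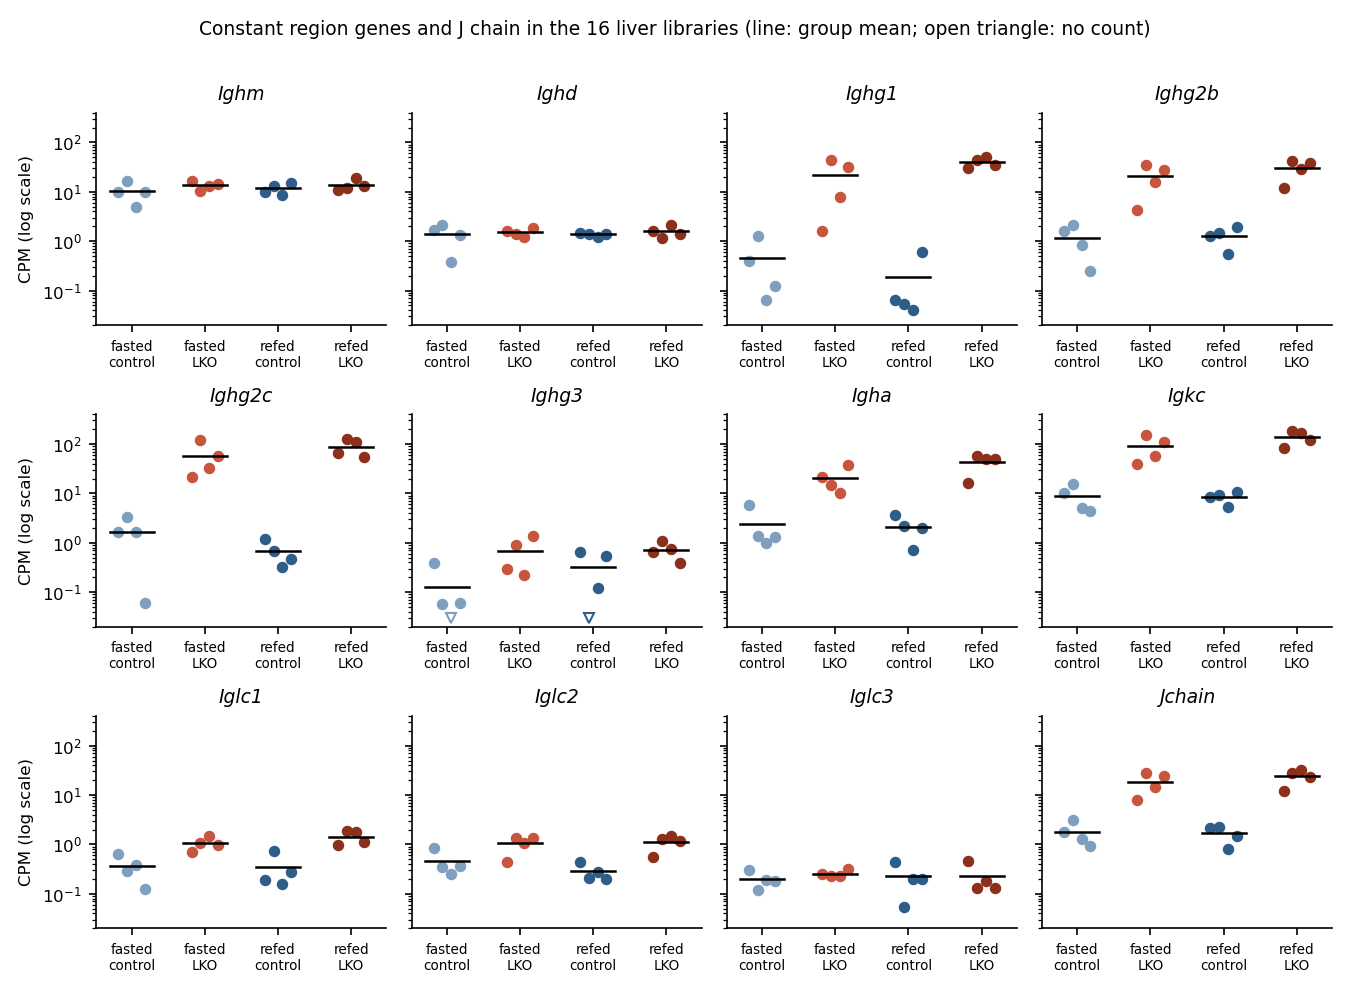
Levels of the 11 constant region genes and Jchain in CPM (log scale) for the 4 libraries of each group, with a line at the group mean and an open triangle for a library with no count. Ighm and Ighd overlap between control and LKO livers, while Igkc, Ighg2c, Igha and Jchain are higher in every LKO library than in every control library of the same state.

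The isotype make-up of the heavy chain counts lay apart between the genotypes. IgM made up 46%, 62.1%, 56.0% and 75.7% of heavy constant counts in the fasted controls and 24.7%, 4.43%, 16.3% and 8.36% in the fasted LKO livers. Among refed livers the IgM share was 54.4%, 70.0%, 74.6% and 68.6% in controls and 7.81%, 4.22%, 7.30% and 6.64% in LKO livers. No LKO share reached a control share, and the nearest pair was S44 at 24.7% (95% Wilson interval 22.5 to 27.1) and S40 at 46% (41.4 to 50.8). These intervals cover counting error only. Control shares rest on 141 to 462 heavy constant counts and LKO shares on 1358 to 4472.

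The IgG genes together were the largest isotype class in each LKO library, at 41.1%, 88.6%, 69.9% and 68.4% in fasted and 79.3%, 75.1%, 73.0% and 66.7% in refed LKO livers. In controls the IgG share was 19.2%, 24.9%, 28.4% and 3.81% fasted and 17.7%, 11.4%, 8.81% and 16.0% refed. The IgA share overlapped between genotypes, with 5.19% to 26.9% in controls and 6.32% to 31.7% in LKO livers. Library S44 had the lowest IgG share and the highest IgA share of the 8 LKO libraries. IgG2c alone made up 28.4% to 53.2% of heavy constant counts in LKO livers.

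**Figure D2:**
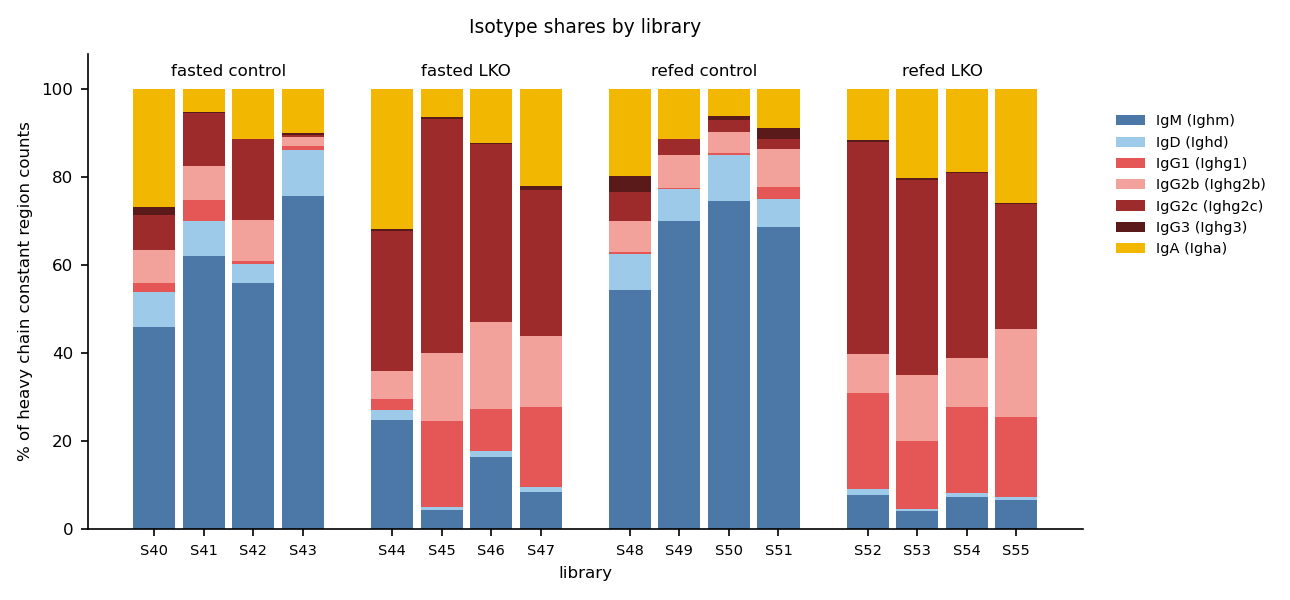
Share of each isotype in the heavy chain constant region counts of each library, in percent, with 1 stacked bar for each of the 16 libraries. IgM makes up 46% to 75.7% in the controls and 4.22% to 24.7% in the LKO livers, where the IgG genes make up 41.1% to 88.6%.

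Light chains were mostly kappa in all livers. The kappa share of light chain constant counts was 85.1%, 95.3%, 86.3% and 86.4% in fasted controls and 96.5%, 98.3%, 95.3% and 97.6% in fasted LKO livers. In the refed state it was 88.7%, 90.4%, 89.2% and 94.0% in controls and 97.7%, 98.2%, 98.0% and 98.0% in LKO livers. The fasted groups touched, since control S41 (95.3%, 95% Wilson interval 92.2 to 97.3) and LKO S46 (95.3%, 93.9 to 96.4) had almost the same share, whereas the refed groups were apart. The control shares rest on 81 to 279 light chain counts.

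The 3 lambda constant genes on chromosome 16 differed less between genotypes than Igkc did in ratio. Iglc1 stood at 0.645, 0.292, 0.379 and 0.123 CPM in fasted controls and at 0.698, 1.07, 1.51 and 0.993 CPM in fasted LKO livers, a ratio of means of 2.97 (2.44 to 4.04 with each library left out). In the refed state it stood at 0.191, 0.743, 0.159 and 0.271 CPM in controls and at 0.971, 1.90, 1.79 and 1.13 CPM in LKO livers, a ratio of 4.24 that was 6.97 without S49. Iglc2 overlapped in the fasted state (ratio 2.33) and was apart in the refed state (ratio 3.96). Iglc3, with 65 counts in all, overlapped in both, with ratios of 1.28 and 1.0, the latter 0.659 without S52. Iglc2 and Iglc3 shared 7.65% and 10.7% of their windows with each other.

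Of the lambda V genes, Iglv1 had 34 control and 143 LKO counts and its ratio of means was 4.71 in the fasted state, 7.66 without S41, and 3.88 in the refed state. Iglv2 had 7 control and 6 LKO counts, with 0.796 for the ratio over both states. Iglv1 thus held most lambda V counts in both genotypes.

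Among the kappa V genes listed the counts were led by Igkv10-96 (chromosome 6, 68608947 to 68609426, minus strand), whose 3′ end is given above. Each of the 79 had at least 2 counts over the 16 libraries, so V genes never detected are not among them, and the part of the locus in use is not known. The LKO livers held 3824 kappa V counts over 76 of the 79 genes, and the controls 381 counts over 63. Igkv10-96 took 10.4%, 8.95%, 25.4% and 19.7% of the kappa V counts in fasted LKO livers and 13.4%, 32.7%, 20.6% and 20.2% in refed LKO livers. It was the leading kappa V gene in 6 of the 8 LKO libraries and in 0 of the 8 control libraries, where its share was at most 7.14% (2 of 28 counts, in S43). Igkv9-124 led in S44 and Igkv1-135 in S45.

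Igkv10-96 stood at 0.149, 0, 0 and 0.123 CPM in fasted controls and at 1.10, 3.67, 3.25 and 4.84 CPM in fasted LKO livers. The ratio of means was 47.2, resting on 5 control counts. It was 35.4 to 57.6 without S41, S42 or 1 of the LKO libraries, 78.1 without S40 (95% exact Poisson interval of the 2 counts left 21.6 to 645) and 64.8 without S43 (3 counts left, 22.2 to 314). In refed LKO livers it stood at 2.61, 13.7, 8.52 and 4.98 CPM, against at most 0.159 CPM in refed controls. About 31.0% of its windows were shared with Igkv10-94, the other member of its family. Igkv1-135 had 9 control and 342 LKO counts, from 0.648 to 4.69 CPM over the LKO libraries. Igkv1-117 had 28 and 256 counts, Igkv1-110 had 23 and 228, and Igkv4-59 had 7 and 252. Igkv4-59 had no count in S44, and 44% of its LKO counts came from S55.

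By family, the Igkv10 genes made up 19.8% of the pooled LKO kappa V counts and 2.62% of the control counts, and the Igkv3 genes 7.09% and 24.4%. Igkv1 genes made up 23.0% and 18.4%, and Igkv4 genes 11.3% and 11.3%. Control shares of single libraries rest on 11 to 97 kappa V counts, so that Igkv3 ran from 3.85% to 45.5% among them.

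The heavy V genes listed lie on chromosome 12 between 113542124 and 115964081, beyond the constant genes (113218450 to 113386350). Their counts were fewer and no gene led throughout. The LKO livers held 1643 heavy V counts over 68 of the 72 genes, and the controls 120 over 38. Each of the 72 had at least 2 counts in all, so heavy V genes never detected are not among them. Ighv1-4 led in 3 of the 8 LKO libraries, with 15.0%, 17.4%, 9.09% and 13.6% of heavy V counts in fasted and 14.0%, 6.07%, 23.4% and 6.31% in refed LKO livers. It had 0 of 120 heavy V counts in controls, which allows a share of up to 2.5% (counting error only, over counts pooled from 8 libraries), and 213 counts in LKO livers. Against a floor of 3 counts over the 4 control libraries of a state, it was at least 30.8-fold higher in fasted and at least 43.2-fold higher in refed LKO livers. Ighv1-4 shared 33.1% of its windows with Ighv1-7.

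Ighv1-59 also had 0 control counts, and 106 LKO counts. It was absent from S44 and stood at 1.24, 0.112 and 0.124 CPM in the other fasted LKO livers, against 1.38, 1.05, 0.926 and 0.952 CPM in refed LKO livers. Against the same floor it was at least 8.55-fold higher in fasted and 26.7-fold higher in refed LKO livers, the former resting largely on S45. Ighv1-82 had 13 control and 143 LKO counts, Ighv1-80 had 6 and 135, and Ighv8-8 had 3 and 135. The Ighv1 family made up 67.0% of LKO and 54.2% of control heavy V counts, from 38 of the 72 genes.

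**Figure D3:**
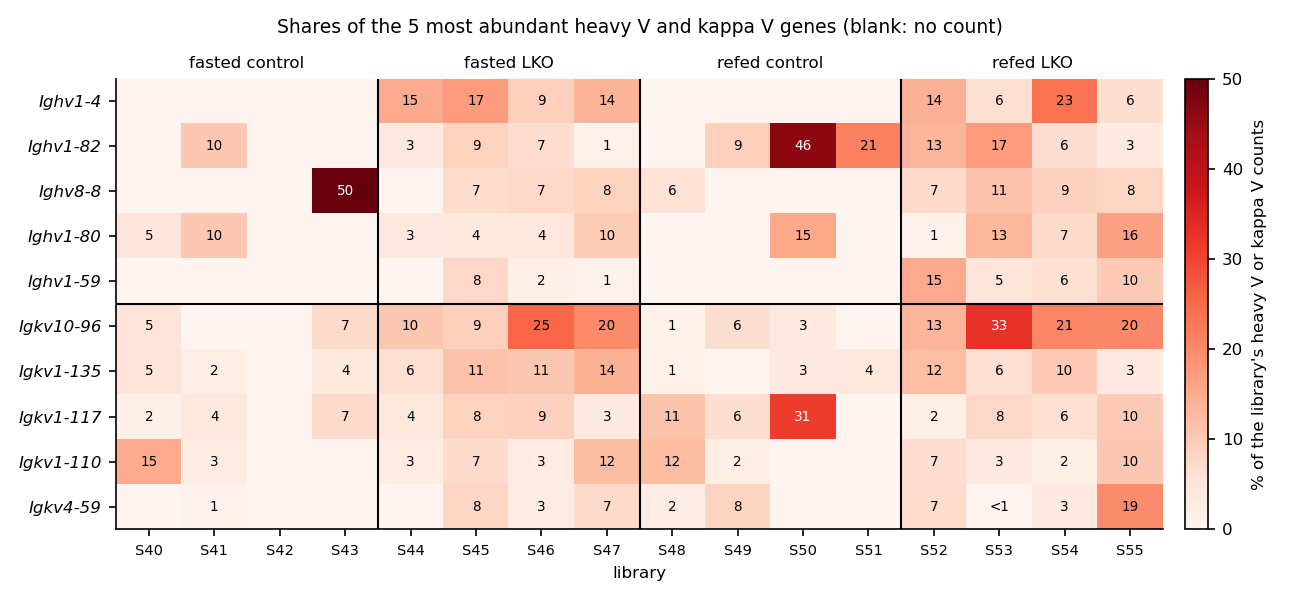
Share of the 5 most abundant heavy V and 5 most abundant kappa V genes among the heavy V or kappa V counts of each library, in percent, with darker red for a larger share and blank cells for no count. Igkv10-96 holds 8.95% to 32.7% in all 8 LKO libraries, whereas the large control shares rest on few counts, such as 50% for Ighv8-8 in S43 with 4 heavy V counts.

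Spread over V genes was summarised by the effective number of genes (inverse Simpson index), which would equal the number of genes if all were used evenly. For kappa V genes it was 18.4, 9.61, 5.76 and 14.5 in fasted controls and 16.7, 16.1, 9.98 and 10.5 in fasted LKO livers. In refed livers it was 15.9, 13.6, 6.95 and 13.5 in controls and 16.6, 7.31, 11.8 and 9.26 in LKO livers. The genotypes overlapped, although the LKO livers held 3824 kappa V counts and the controls 381. The index cannot exceed the counts of a library, so few counts hold it down. The number of kappa V genes expected at 11 counts ran from 7.0 to 9.34 in controls and from 7.06 to 8.70 in LKO livers. For heavy V genes the index ran from 10.8 to 15.0 over the LKO libraries and from 2.67 to 15.3 over the controls, where 3 libraries held 11 or fewer heavy V counts. The number expected at 4 counts ran from 3.51 to 3.71 in LKO livers and from 2.84 to 3.89 in controls.

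The V genes of an LKO liver differed from those of the next. Of 53 V genes with at least 20 LKO counts, 15 had more than 50% of them in 1 of the 8 libraries. The most uneven, named after their values were seen, were Ighv11-2 (22 of 23 counts in S46), Igkv8-21 (34 of 38 in S45) and Ighv14-3 (47 of 53 in S53). Ighv11-2 was the leading heavy V gene of S46, with 18.2% of its heavy V counts. Over the 8 LKO libraries 6 different heavy V genes and 3 different kappa V genes led. Only 4 heavy V and 10 kappa V genes had a count in all 8 LKO libraries.

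**Figure D4:**
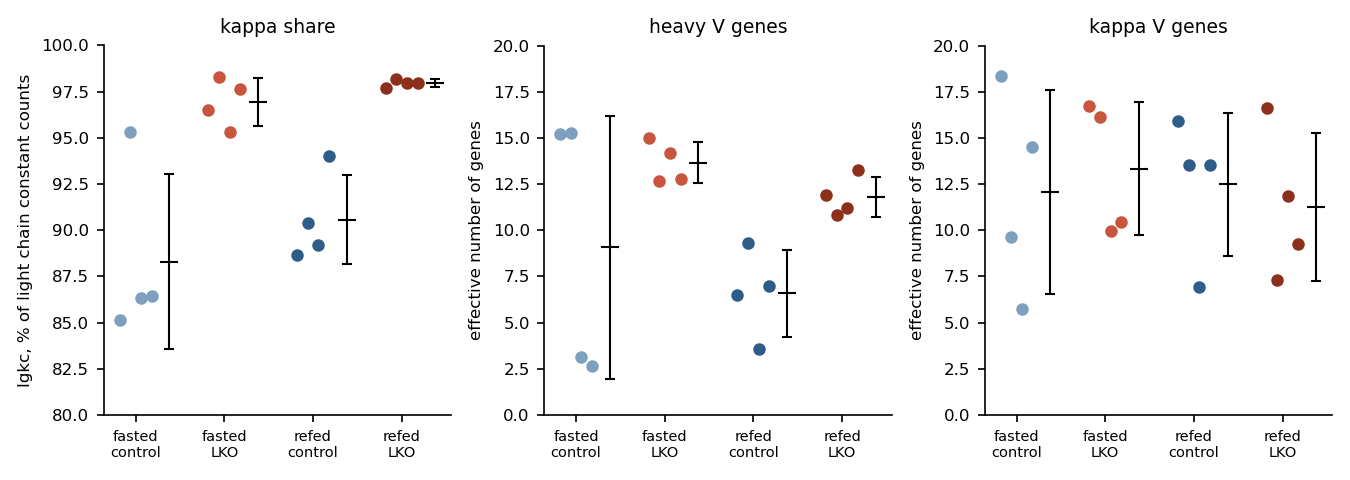
Kappa share of light chain constant counts (percent) and effective number of heavy V and kappa V genes (inverse Simpson index) for each library, with the group mean and SD beside the points (n = 4). The kappa share is 95.3% or more in all LKO livers, and the effective numbers overlap between genotypes, with the widest spread in fasted controls.

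Refeeding was tested within each genotype, a contrast that the choice of the family did not use. In control livers 0 of the 22 tested members with more than 3 control counts were called by edgeR, where 15.4% of all genes tested were, 7.65% lower. Of these 22, 0 had an unadjusted p under 0.05, and DESeq2 and limma-voom called 0 as well. The other 4 of the 26 had too few control counts to be called there. The log2 fold changes were −0.08 (SE 0.45) for Igkc, −0.14 (SE 0.52) for Jchain, 0.18 (SE 0.29) for Ighm and −0.27 (SE 0.66) for Igha. For Ighg2c it was −1.38 (SE 0.86), so sizeable changes of low genes cannot be told from none here.

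In LKO livers 1 of the 26 members was called in refed against fasted livers, where 18.1% of all genes tested were called, 9.28% higher and 8.78% lower. Igkv9-120 (chromosome 6, 68026967 to 68027440, plus strand), a kappa V gene of the Igkv9 family, stood at 0.349, 0.170, 0.280 and 0.0621 CPM in fasted and at 0.818, 1.37, 4.20 and 0.822 CPM in refed LKO livers. The groups were apart, and it rose by a log2 fold change of 2.97 (SE 0.64, edgeR adjusted p = 0.00436). Its counts were 7, 3, 5 and 1 in fasted and 16, 21, 68 and 19 in refed LKO livers. It therefore passed the filter on low counts only through the refed LKO libraries, which favours a rise among the genes tested. With no filter its log2 fold change was 2.99 (SE 0.63, edgeR adjusted p = 0.00379). The change was 2.14 without S54, which held 48.6% of its LKO counts, and Igkv9-120 stayed called with each library left out in turn (highest adjusted p 0.0155). Where a mean of at least 1 CPM was required it was not among the genes tested.

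Other members were higher on average in refed LKO livers without passing the test. The log2 fold change was 0.63 (SE 0.40, edgeR adjusted p = 0.303) for Igkc and 0.37 (SE 0.37, adjusted p = 0.531) for Jchain. It was 1.05 (SE 0.49, adjusted p = 0.154) for Igha and 1.21 (SE 0.47, adjusted p = 0.0842) for Igkv10-96, and the latter was called without S52 (adjusted p = 0.0334). For Ighm it was 0.00 (SE 0.28). Without S45, the fasted LKO library with the most immunoglobulin counts, 4 members were called: Igkv9-120, Ighv1-82, Ighv1-59 and Igkv14-111. In that fit Ighv1-82 and Ighv1-59 also passed the filter only through refed LKO libraries. Igkv14-111, with 6, 13 and 8 counts in S44, S46 and S47, likewise needed the refed LKO libraries to pass.

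**Figure D5:**
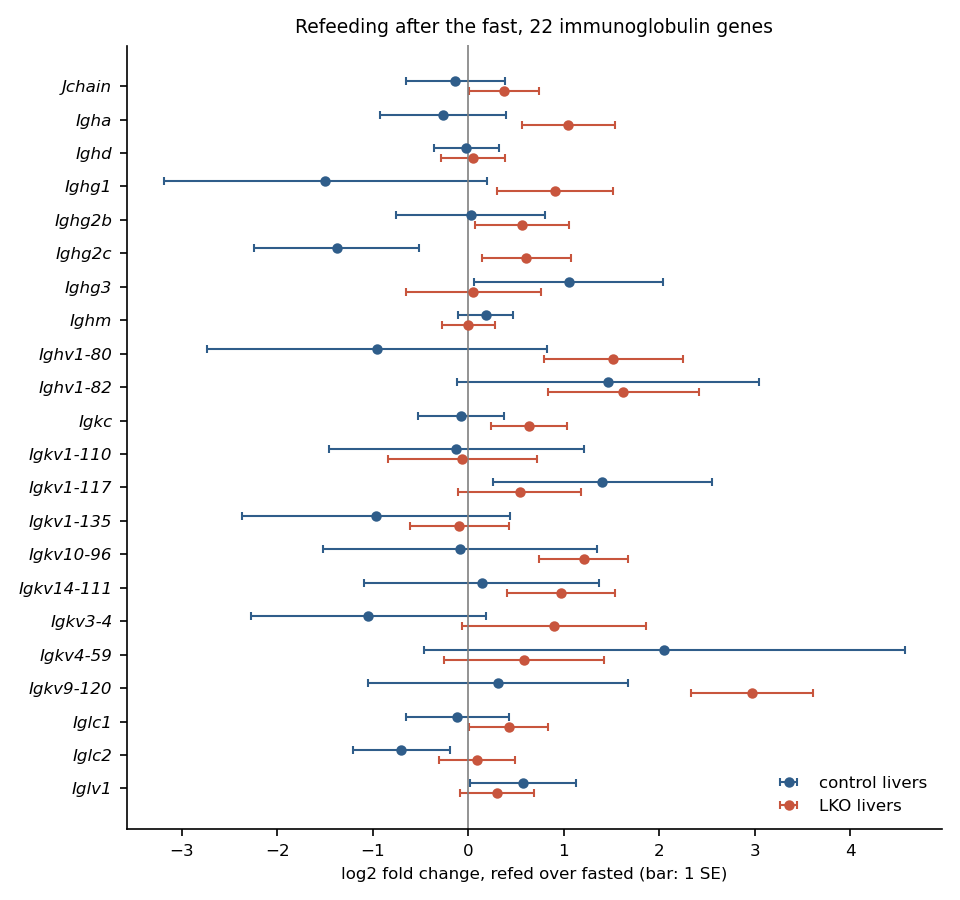
Log2 fold change of refed over fasted livers for the 22 tested members with more than 3 control counts, in control livers (blue) and LKO livers (red), with bars of 1 SE from edgeR. Igkv9-120 in LKO livers, at 2.97, is the member that passed the test, and the control values lie on both sides of 0.

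The genotype difference was compared between the feeding states by the interaction term. Of the 22 members with more than 3 control counts 0 were called, where 0.538% of all genes tested were, 0 had an unadjusted p under 0.05, and DESeq2 and limma-voom called 0 too. The difference of log2 fold changes, refed minus fasted, was 0.51 (SE 0.63) for Jchain, 0.71 (SE 0.60) for Igkc, 1.32 (SE 0.82) for Igha and 1.99 (SE 0.98) for Ighg2c. The lowest adjusted p of a member was 0.325. The larger ratios in the refed state did not pass a test of their difference from those in the fasted state.

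The make-up of the counts was also compared between feeding states by exact two-sided permutation tests of 4 against 4 libraries, whose smallest p is 0.0286. Of 12 tests 0 had a p under 0.05, and adjusted p ranged from 0.729 to 0.886. In LKO livers the IgM share was 13.5% ± 9.0 fasted and 6.49% ± 1.59 refed (SD, n = 4, exact permutation p = 0.2). The kappa share was 96.9% ± 1.29 fasted and 98.0% ± 0.206 refed (SD, n = 4, exact permutation p = 0.2). The lowest p was that of the effective number of heavy V genes in LKO livers, 13.7 ± 1.12 fasted and 11.8 ± 1.07 refed (SD, n = 4, exact permutation p = 0.0857).

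Within a genotype, relations between members were computed over its 8 libraries, of both feeding states, on log2(CPM + 0.1). Each pair was tested in both genotypes, which gave 12 tests. Igkc and Jchain varied together in LKO livers (Pearson's r = 0.944, permutation p = 0.00109, adjusted p = 0.00655; Spearman's rho = 0.929, permutation p = 0.00223, adjusted p = 0.0268), and r was 0.881 without S44 and S46. In controls r was 0.880 (permutation p = 0.00541, adjusted p = 0.0216), and rho 0.714 (permutation p = 0.0576, adjusted p = 0.166), and r was 0.865 without S42 and S43. Igkc and Ighg2c gave r = 0.957 in LKO livers (permutation p = 7.4e-04, adjusted p = 0.00655) and rho = 0.881 (permutation p = 0.00724, adjusted p = 0.0434), and r was 0.830 without S44 and S46. In controls the same pair gave r = 0.673 (permutation p = 0.0665, adjusted p = 0.133) and rho = 0.571 (permutation p = 0.151, adjusted p = 0.227), and r was 0.780 without S42 and S43.

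The relations of Igkc with Igha and with Ighm did not pass the test in LKO livers. For Igkc and Igha r was 0.592 (permutation p = 0.129, adjusted p = 0.193) and rho 0.619 (permutation p = 0.115, adjusted p = 0.227), and r was 0.467 without S44 and S46. For Igkc and Ighm r was −0.21 (permutation p = 0.627, adjusted p = 0.627) and rho −0.21 (permutation p = 0.619, adjusted p = 0.619), and r was 0.302 without S44 and S46. In controls Igkc and Ighm gave r = 0.748 (permutation p = 0.0252, adjusted p = 0.0604) and rho = 0.738 (permutation p = 0.0458, adjusted p = 0.166), and r was 0.814 without S42 and S43. Ighm and Ighd gave r = 0.856 in controls (permutation p = 0.0124, adjusted p = 0.0373) and rho = 0.690 (adjusted p = 0.167). Without S41 and S42 that r was 0.0752. In LKO livers their r was 0.628 (permutation p = 0.0968, adjusted p = 0.166). Ighg2c with Igha did not pass in LKO livers (r = 0.402) or controls (r = 0.338), nor did Igkc with Igha in controls (r = 0.501). Each feeding state alone has 4 libraries of a genotype, too few for a relation of its own. Whether these relations differ between genotypes was not tested.

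Markers of the cells that make or carry antibody were read beside the immunoglobulin genes. The 15 B cell genes used, which include the receptor genes Cd79a and Cd79b and the surface marker Ms4a1, summed to 10.2 to 18.0 CPM in fasted controls and 14.1 to 19.7 CPM in fasted LKO livers. In the refed state they summed to 10.5 to 15.5 and 11.9 to 20.2 CPM. By edgeR, 0 of the 10 tested were called in either state, with 0 at an unadjusted p under 0.05 in the fasted and 1 in the refed state. Over all genes tested 12.2% were called fasted and 3.63% refed, shares that also stand beside the T cell genes below. Their median log2 fold change was 0.27 fasted and 0.28 refed, beside 0.02 and −0.01 over all genes tested. The 12 T cell genes summed to 5.68 to 9.92 and 7.50 to 14.1 CPM in fasted and 3.73 to 6.74 and 7.26 to 12.0 CPM in refed control and LKO livers, with 0 of 11 called and 5 at an unadjusted p under 0.05 in each state. Their median log2 fold change was 0.81 fasted and 0.78 refed, above that of the B cell genes. The part of these cells in the immunoglobulin levels was not tested.

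The 18 plasma cell genes held both abundant and scarce transcripts. The list summed to 851 to 940 CPM in fasted controls and 657 to 733 CPM in fasted LKO livers, and to 1060 to 1273 and 913 to 1019 CPM in the refed state. Sdc1, Xbp1 and Txndc5, with means of 257, 248 and 211 CPM in fasted controls, made up most of the list mean of 890 CPM there. The sum therefore says little about the scarce genes of the list. Of 13 tested, 1 was called higher and 6 lower in fasted LKO livers, and 0 higher and 1 lower (Derl3) in refed LKO livers. The shares over all genes tested were 5.75% higher and 6.48% lower fasted, and 2.28% and 1.35% refed. The list had median log2 fold changes of −0.07 and 0.02. The lower ones in the fasted state, Xbp1, Txndc5, Creld2, Sec11c, Edem2 and Derl3, serve folding, processing or quality control of secretory proteins. Pou2af1, a transcriptional coactivator of B cells, was the higher one, with 0 to 0.370 CPM in fasted controls and 0.435 to 1.49 CPM in fasted LKO livers.

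Of the defining plasma cell genes, Sdc1, the surface proteoglycan CD138, ran from 188.6 to 463.9 CPM over the 16 libraries and Xbp1 from 186 to 307 CPM, and the genotypes overlapped for Sdc1 in both states. Others were near the limit of detection. Mzb1, a chaperone of immunoglobulin assembly, ran from 0 to 0.247 CPM in fasted controls and from 0 to 0.339 CPM in fasted LKO livers, and from 0 to 0.128 and 0.256 to 0.523 CPM in refed livers. Tnfrsf17, the survival receptor BCMA, did not exceed 0.0997 CPM in any library. Prdm1 and Irf4, transcription factors of plasma cells, reached at most 0.679 and 0.848 CPM. The part of plasma cells in the immunoglobulin levels was not tested.

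Some markers of other cells and tissues also differed between the genotypes. Of 10 macrophage, 2 NK cell and 2 neutrophil genes tested, 0 were called in either state, beside 12.2% of all genes tested fasted and 3.63% refed. In refed LKO livers 4, 1 and 0 of them had an unadjusted p under 0.05, and in fasted LKO livers 0. Median log2 fold changes were −0.11, 0.32 and 0.03 fasted and −0.48, 0.43 and −0.50 refed. Of 5 red blood cell genes tested, 1 was called lower in fasted and 0 in refed LKO livers. Over all genes tested 6.48% were called lower fasted and 1.35% refed. The 8 pancreas and intestine genes summed to 203.6 to 222.6 CPM in fasted controls and 311 to 423 CPM in fasted LKO livers, and to 167 to 189 and 277 to 354 CPM in the refed state. Nearly all of this was Fabp2, a fatty acid binding protein, and Lgals4, a galectin, whereas Cpa1, Prss2 and Pnlip were at 0. Fabp2 and Lgals4, the 2 tested, were both called higher in fasted LKO livers, and 1 of the 2 in refed LKO livers. Over all genes tested 5.75% were called higher fasted and 2.28% refed. The pancreatic protease gene Ctrb1, named after its values were seen, stood at 9.42 CPM in S44 and at most 0.170 CPM elsewhere.

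The 6 adipocyte genes summed to 46.5 to 132 CPM in fasted controls and 153 to 354 CPM in fasted LKO livers, of which Cidec, a lipid droplet gene, made up nearly all in the latter. In the refed state the 6 genes overlapped, at 10.8 to 116 CPM in controls and 66.3 to 109.7 CPM in LKO livers. Of the 2 tested, Cidec was called higher and Cfd, the serine protease adipsin, lower in the fasted state, and 0 were called in the refed state. Over all genes tested 5.75% were called higher and 6.48% lower fasted, and 2.28% and 1.35% refed. Adipoq, Plin1, Lep and Retn reached at most 0.496 CPM in any library. Of 8 proliferation genes tested, 2 (Top2a and Cdk1) were called higher in refed and 0 in fasted LKO livers, beside 2.28% and 5.75% of all genes tested. Of the B cell precursor genes, Dntt, which adds bases at V segment joins, stood at 1.23 to 1.52 CPM in fasted controls and 2.30 to 3.29 CPM in fasted LKO livers, while Rag1 and Rag2 were at 0. In the refed state Dntt overlapped, at 1.39 to 2.33 CPM in controls and 2.12 to 2.88 CPM in LKO livers. The part of these cells and tissues in the immunoglobulin levels was not tested.

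Of the genes of immunoglobulin receptors and transport, Pigr and Fcgrt were abundant in liver. Pigr, the receptor that carries polymeric IgA and IgM across epithelia, ran from 1149 to 1507 CPM in controls. Its log2 fold change in LKO livers was −0.53 (SE 0.11) in the refed state, and it fell by 0.36 on the log2 scale with refeeding in LKO livers (SE 0.11, edgeR adjusted p = 0.0286). Fcgrt, the neonatal Fc receptor that recycles IgG, fell with refeeding by 0.40 in control (SE 0.11, edgeR adjusted p = 0.0171) and 0.37 in LKO livers (SE 0.11, edgeR adjusted p = 0.0203). Of the 10 tested on this list, 1 was called lower with refeeding in control and 2 in LKO livers, beside 7.65% and 8.78% of all genes tested. Between the genotypes 1 of the 10 was called lower and 0 higher in LKO livers in each state. Over all genes tested 6.48% were called lower fasted and 1.35% refed.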

How the data were processed

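Poly-A RNA was sequenced in 16 liver libraries, per the labels' protocols, after library building with random hexamers and dUTP. The authors deposited 4 tables of raw counts per gene, each with 8 libraries. Their log2 fold changes, p-values and gene lengths are in the same deposited tables. Lengths were used here, and the authors' log2 fold changes and p-values were not. The submitters' processing notes list HISAT2 2.0.5 and mm39 without saying what each was used for. The counting tool, its use of strand and its handling of reads that fit several V genes are not given in the sources used here.

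The tables were joined on gene identifier (25803 genes, 0 counts differing between tables). A gene absent from both tables of a library was set to 0 there, which touched 54 members. Another 64 per-library columns were left out. Columns carry no replicate number, and the table headings gave each library its group.

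The count model was fitted with edgeR 4.0.16 under R 4.3.3: filterByExpr on the 4 groups (14488 genes), TMM factors (0.941 to 1.07), glmQLFit over all 4 groups (biological coefficient of variation 0.185) and glmQLFTest for 5 contrasts. Called means a Benjamini-Hochberg adjusted p under 0.05 over all genes tested. The SE is the log2 fold change divided by the square root of F. The code was tested on simulated data. CPM are counts per 1000000 of the TMM-scaled total, and a ratio is that of group mean CPM. Shares and the inverse Simpson index were computed from raw counts in Python 3.11.15 with scipy 1.17.1. Intervals are 95% Wilson intervals.

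Members and gene lists were chosen with earlier results of these data known. Genes named are the constant genes, Jchain, the 5 heavy V, kappa V and lambda V genes with the highest mean CPM, members called in refeeding or the interaction, and list genes. Others were named after their values were seen. Alternatives were DESeq2 1.42.0, limma-voom (limma 3.58.1), 3 other scalings, scaling factors without the immunoglobulin genes, 2 other filters, fits of only the groups compared, each library left out, shares per kilobase, and other measures of spread. The B cell list was used without 1 gene, which is not reported here. Immunoglobulin proteins and promoters other than that of Jchain were not analysed here.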

Additional observations from a re-analysis of the deposited data

Results flagged for a closer look

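Among 102 groups of 4 libraries, 7 had 1 library far from the other 3 by Dixon's test at the 95% level. Chance flags about 1 group in 20. In fasted controls, S40 held the highest Igha level (5.70 CPM, next 1.40) and the highest Ighg3 level (0.397 CPM, next 0.0617), and S41 the highest Iglv1 level (0.408 CPM, next 0.126) and the highest kappa share (95.3%, next 86.4%). In fasted LKO livers, S45 stood at 1.24 CPM for Ighv1-59 (next 0.124). In refed controls, S51 stood at 0.610 CPM for Ighg1 (next 0.0638). In refed LKO livers, S52 stood at 0.460 CPM for Iglc3 (next 0.185).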

How the results depend on the processing

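Over 62 results and 1324 alternative values, 1203 kept their direction and their side of the threshold. Of single genes compared between genotypes, 71 values no longer passed and 30 newly passed, and the log2 fold change of Ighd in the fasted state ran from −0.17 (without S42) to 0.41 with each library left out. The 16 members called in fasted LKO livers became 9 of 11 tested where a mean of at least 1 CPM was required and 8 of 12 when only these groups were fitted, since fewer members were tested. The 19 called in refed LKO livers became 9 of 11 with that filter. With each library left out the counts ran from 13 to 18 and from 13 to 21. With refeeding in LKO livers the 1 call became 3 with limma-voom (Igkv9-120, Ighg1, Ighv1-59), 4 with no filter (Igkv9-120, Igkv16-104, Ighv14-3 and, lower, Igkv3-5), 0 with the filter at 1 CPM, where Igkv9-120 was not tested, and 1 to 4 with each library left out, 4 without S45 and 2 without S52. Apart from the fit with no filter, Igkv9-120 and Ighv1-59 needed the refed LKO libraries to pass the filter on low counts, which favours a rise. Ighv1-59 had 0, 22, 2 and 2 counts in the fasted LKO livers. Refeeding in controls and the interaction gave 0 under each alternative.

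The refeeding differences of the shares changed sign in places, and none of those tests passed. For the IgA share the difference in LKO livers was 1.07 points and ran from −2.86 (without S45) to 5.62 with each library left out, being −1.17 without S55 and −0.87 without S46. In controls it was −1.80 and ran from −4.55 to 2.70 (without S40), being 0.0138 without S50. For the IgG share in LKO livers it was 6.53 and ran from −2.12 (without S44) to 13.7. The effective number of heavy V genes in controls differed by −2.48, and the number of them expected at 4 counts by 0.0719. For kappa V genes in controls the difference was 0.42, −0.17 by Shannon entropy, and ran from −1.68 (without S42) to 2.53, being −0.72 without S48 and −0.39 without S41. The cause of these changes was not tested. Left out, a library leaves 4 against 3, where the exact test cannot go below 0.0571.

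Adding V pseudogenes gave no value, since the tables used list none. No paired analysis was possible because the columns carry no replicate numbers. Control livers held 4 to 29 heavy V and 11 to 97 kappa V counts a library, which limits shares of V genes there.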
